A study of Homo sapiens with 17 samples.

Results

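The human mitochondrial genome encodes 13 mRNAs, 2 rRNAs and 22 tRNAs, and all 37 of these genes are among the 58870 entries of the gene table. They were taken by symbol alone, as every entry whose symbol starts with MT-. The choice of this group was made with earlier results of these data known. The cells were MDA-MB-231, an established triple-negative breast cancer line of mesenchymal, basal B type. TRAIL, the ligand of the death receptors DR4 and DR5, was given at 45 nM, a dose that the study calls suboptimal, and RNA was taken at 0, 1, 3, 6, 12 and 24 h, to follow the transcriptome of cells that stay alive. There were 17 libraries, 2 at 1 h and 3 at each other time, and total counts ran from 13731520 to 19234924 per library. Every library, 0 h included, carries the label of TRAIL treatment. All come from 1 cell line and none from a culture kept without TRAIL past 0 h, so effects of the ligand and of the hours in culture cannot be told apart. The labels do not say whether replicates were separate cultures, so p-values measure only the spread between these libraries, which may be technical.

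The mesenchymal markers of the line were present in all libraries, VIM at 2650 to 3492 CPM (counts scaled to a common library size, here and per kilobase by the library total alone) and CD44 at 1151 to 1563 CPM, and ESR1 and PGR, the receptors a triple-negative line lacks, reached at most 2 and 1 counts. Of 7 markers of other cells CD3E was at 0 in all libraries, and the 7 together gave 56.4 to 62.9 CPM at 3 h, 71.8 to 88.4 CPM at 0, 1, 6 and 12 h, and 102 to 106 CPM at 24 h. CD68, a lysosomal gene, made up most of that sum, at 55.0 to 102 CPM. Whether the other markers have a part in the results was not tested. At 6 h and at 24 h replicates 2 and 3 were closer to each other than any other replicate pair, at a chi-square per gene of 1.57 and 1.67 against 3.44 to 12.3 for the other 14 pairs. The gap was still above what counting error gives, so both were kept, and the fits were repeated with them summed.

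Both strands of mitochondrial DNA are transcribed by the RNA polymerase POLRMT, with TFAM and TFB2M, into long precursors. The tRNAs that lie between most of the other genes are then cut out, which releases the rRNAs and mRNAs, and most mRNAs receive a poly(A) tail that in several cases completes the stop codon. The heavy-strand precursors give 12 of the 13 mRNAs, both rRNAs and 14 tRNAs. The light-strand precursor gives MT-ND6 and the other 8 tRNAs. The 13 mRNAs encode core subunits of complex I (the MT-ND genes), complex III (MT-CYB), complex IV or cytochrome c oxidase (the MT-CO genes) and ATP synthase (MT-ATP6 and MT-ATP8), and each of these complexes is completed by subunits from nuclear genes. The libraries were made by poly(A) selection, per the labels' protocols. The mRNAs with a tail are therefore the directly measured members. Any mRNA without one, rRNAs, with short tails, and tRNAs, with none in their mature form, are captured in part or through precursors. How well poly(A) selection captured MT-ND6 beside the other mRNAs was not tested.

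The sequences below show 2 features that bear on the counts, the strand difference and the shared bases. MT-ND6 is copied from the other strand and is rich in G, with 35.6% G and 7.05% C over its length. The 12 heavy-strand mRNAs held 6.28% to 16.2% G and 29.5% to 36.0% C. The first bases of MT-ND6 (chrM:14584-14673, minus strand, GRCh38) and of MT-CO1 (chrM:5904-5993, plus strand) are given with every G in capitals, from the GENCODE release 29 transcripts.
MT-ND6: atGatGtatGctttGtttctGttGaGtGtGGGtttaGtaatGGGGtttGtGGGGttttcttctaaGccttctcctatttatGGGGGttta
MT-CO1: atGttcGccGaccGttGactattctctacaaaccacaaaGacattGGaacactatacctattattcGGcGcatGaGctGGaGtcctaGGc
The end of MT-ATP8 (chrM:8513-8572) shares its last 46 bases with MT-ATP6, and the end of MT-ND4L (chrM:10707-10766) shares its last 7 bases with MT-ND4. The shared bases are in capitals.
MT-ATP8: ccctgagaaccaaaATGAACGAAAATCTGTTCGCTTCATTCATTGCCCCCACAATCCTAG
MT-ND4L: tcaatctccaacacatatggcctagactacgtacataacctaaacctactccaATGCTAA
Each of these pairs is carried on 1 mature mRNA, so how the counting split reads between MT-ATP8 and MT-ATP6, or MT-ND4L and MT-ND4, is uncertain. Nuclear copies of mitochondrial genes were a further source of shared reads. Of 394 entries for such copies, 7 reached at least 10 counts in a library. MTCO1P12 held 2.22% to 2.7% of the count of MT-CO1, MTND2P28 held 2.33% to 2.79% of that of MT-ND2, and MTATP6P1 held 11.2% to 12.7% of that of MT-ATP6.

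The 13 mRNAs took a larger share of all counts at 1 and 3 h than at 6 and 24 h. They took 7.59%, 4.98% and 5.71% of the counts in the 0 h libraries, 6.90% and 8.76% after 1 h, 7.80%, 7.97% and 7.05% after 3 h, 4.86%, 3.60% and 3.54% after 6 h, 6.05%, 4.45% and 4.70% after 12 h, and 3.62%, 3.20% and 3.45% after 24 h. The mean was 6.09% ± 1.35 (SD, n = 3) at 0 h, 7.61% ± 0.491 (SD, n = 3) at 3 h, 4.0% ± 0.745 (SD, n = 3) at 6 h and 3.42% ± 0.212 (SD, n = 3) at 24 h. All libraries at 6 h and at 24 h lay below all libraries at 0 h, and all at 6 h lay below all at 3 h. The two-sided exact permutation p was 0.1 for each of these, which is the smallest that 3 against 3 libraries can give, and 0.225 after Benjamini-Hochberg adjustment over the times compared. At 1, 3 and 12 h the libraries overlapped those of 0 h (exact permutation p = 0.3, 0.2 and 0.4). The 2 rRNAs took 0.659% ± 0.112 (SD, n = 3) of counts at 0 h, 0.979% ± 0.0305 (SD, n = 3) at 3 h and 0.476% ± 0.0336 (SD, n = 3) at 24 h. In bulk RNA, fewer mitochondrial transcripts per cell and more of all other transcripts per cell cannot be told apart.

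**Figure D1:**
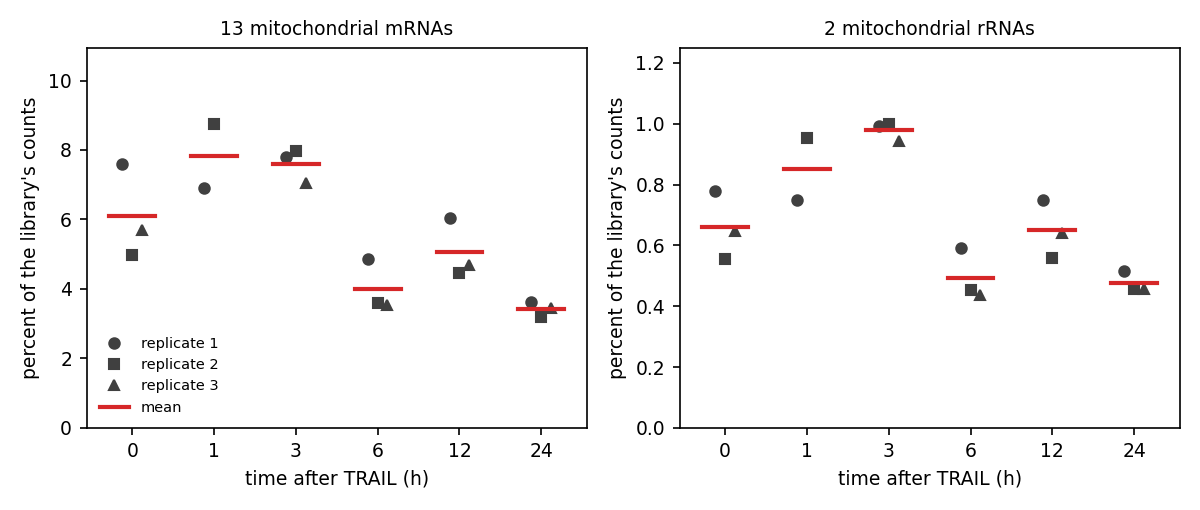
Percent of each library's counts on the 13 mitochondrial mRNAs and on the 2 mitochondrial rRNAs, by hours with TRAIL; each point is a library and each line a mean over the 2 or 3 libraries of a time. The mRNA share lies between 7.05% and 7.97% at 3 h and between 3.20% and 3.62% at 24 h.

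Per base of transcript, MT-CO2 stood highest and MT-ND6 and the small-subunit rRNA lowest in every library. In mean CPM per kilobase over the 17 libraries, MT-CO2 was at 11164, MT-CO1 at 7599, MT-CO3 at 6944 and MT-ATP6 at 6703. MT-ND4 at 5605 and MT-ND2 at 5280 followed, then MT-ATP8 at 4438, MT-ND4L at 4190, MT-RNR2 at 3800 and MT-ND3 at 3461. The low end was MT-ND1 at 2780, MT-CYB at 2499, MT-ND5 at 1871, MT-ND6 at 1103 and MT-RNR1 at 867. MT-CO2 lay above MT-CO1 in 17 of 17 libraries, and from MT-ND3 down each gene lay above the next in all 17. The other neighbours changed places in at least 1 library, except MT-ATP6 over MT-ND4. MT-CO1 over MT-CO3 held in 16 libraries, MT-CO3 over MT-ATP6 in 15, MT-ND4 over MT-ND2 in 11, MT-ND2 over MT-ATP8 in 16, MT-ATP8 over MT-ND4L in 12, MT-ND4L over MT-RNR2 in 14 and MT-RNR2 over MT-ND3 in 13. The order pools the times: at 24 h the mean of MT-ATP6, 4138 CPM per kilobase, was level with that of MT-CO1 at 4137 and MT-CO3 at 4088. The rRNA levels are those of a poly(A)-selected library and are no measure of ribosome content.

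**Figure D2:**
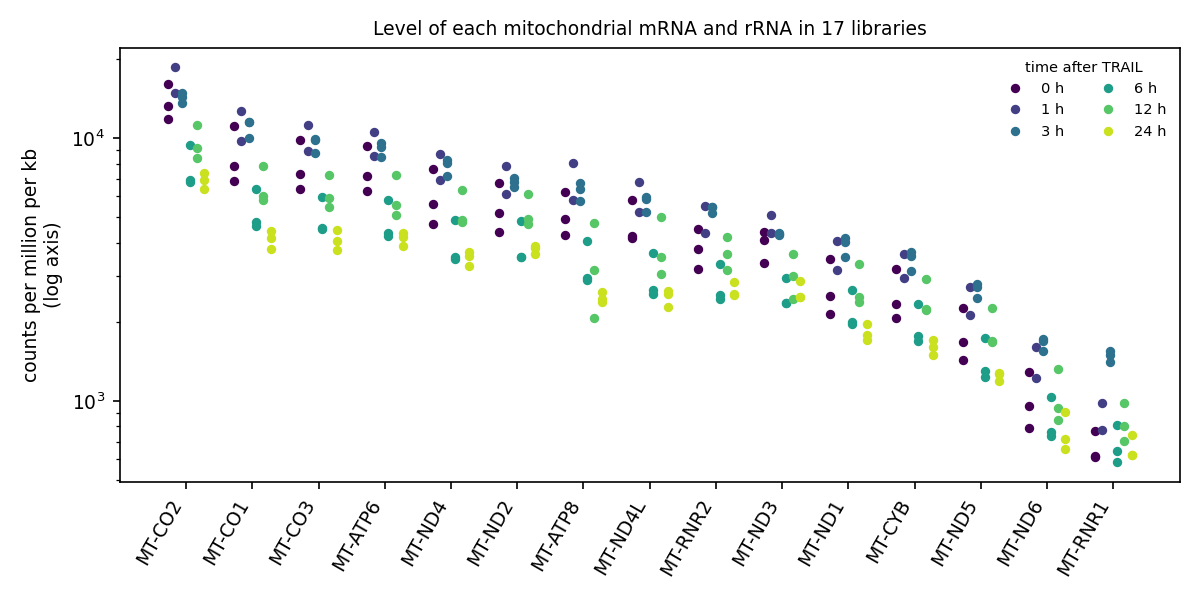
CPM per kilobase of transcript of the 13 mRNAs and 2 rRNAs, on a log axis. Points are the 17 libraries, coloured by time, and genes are ordered by their mean over the libraries. MT-CO2 leads at a mean of 11164 and MT-RNR1 is lowest at 867.

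Each member was tested with all other genes, by edgeR's quasi-likelihood test on the rounded counts with Benjamini-Hochberg adjustment over 15365 genes. A member is called when its adjusted p is below 0.05, and fold changes are log2 with their standard error (SE). At 1 h all 13 mRNAs had positive fold changes against 0 h, with a median of 0.42, and 0 were called by edgeR (1 had an unadjusted p below 0.05), 0 by DESeq2 and 0 by limma-voom. Of all genes tested 0.312% were called at 1 h. Without the filter on low counts edgeR called all 13 higher at 1 h. The 0.312% belongs to the filtered fit, and the share of all genes called without the filter is not given here. At 3 h the median was 0.39, 13 of 13 were positive (with length and GC trends removed MT-CO2 was at -0.0394 and MT-ND3 at -0.00398), and 2 were called higher, MT-ND5 and MT-ND6, where 9.04% of all genes were called higher. At 6 h the median had turned to -0.63 and 7 of 13 were called lower, where 13.2% of all genes were. At 12 h MT-CO2 was called lower (6.48% of all genes) with a median over the mRNAs of -0.34, and at 24 h 12 of 13 were called lower (17.1% of all genes) with a median of -0.85. Over all genes tested the median lay between -0.0218 and -0.00175 in these comparisons.

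The step from 3 to 6 h took in every mRNA. All 13 were called lower at 6 h than at 3 h, where 20.3% of all genes were called lower, from -0.83 for MT-ND3 to -1.13 for MT-CO1, with a median of -0.99. For each of the 13 mRNAs, the 3 libraries at 6 h lay below the 3 at 3 h. The share of all genes that did so was not counted. Of these calls 12 held in each of 20 alternative analyses, and MT-ATP8 missed the threshold in 1 of them, the sum of replicates 2 and 3 at 6 h and 24 h. These 20 do not include the scaling to the mRNAs' own total, given with the ratios below. With length and GC trends removed MT-CO2 was at -0.62, MT-ND1 at -0.59, MT-ND3 at -0.51 and MT-ND4L at -0.67, all still called. From 6 to 12 h 0 mRNAs were called by edgeR, DESeq2 or limma-voom, where edgeR called 20.6% of all genes, at a median of 0.28 and with 1 at an unadjusted p below 0.05. From 12 to 24 h 7 were called lower, where 5.6% of all genes were, at a median of -0.63, and 0 mRNAs were called without replicate 1 at 12 h, without replicate 2 or 3 at 24 h, or with these 2 replicates summed.

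**Figure D3:**
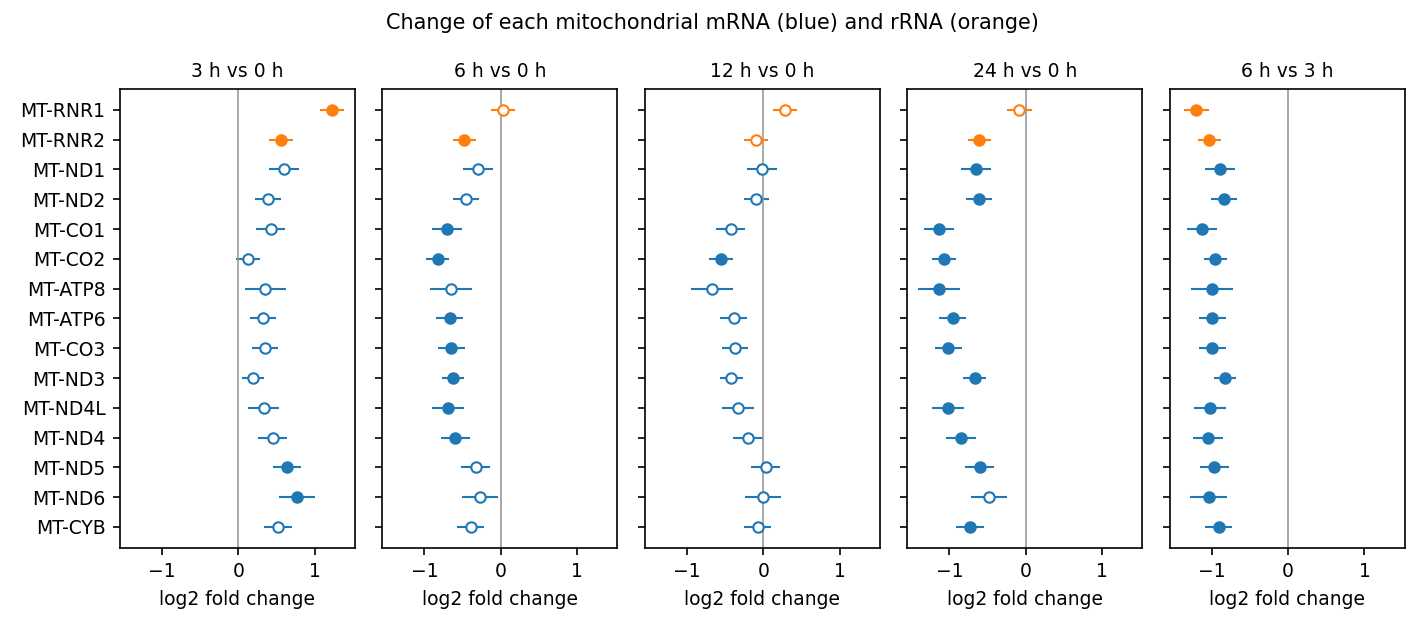
Log2 fold change of the 13 mRNAs and 2 rRNAs at 3, 6, 12 and 24 h against 0 h and at 6 h against 3 h, with bars of 1 SE; filled points have an adjusted p below 0.05 in edgeR's quasi-likelihood test. At 6 h against 3 h all 15 points are filled and lie between -0.83 and -1.20.

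The 3 mRNAs of complex IV and both of ATP synthase were called lower at 24 h, by -0.96 to -1.14. MT-CO1 (chrM:5904-7445, plus strand) encodes the subunit that holds the oxygen-reducing centre. It was at 17430.1, 10520.2 and 11999 CPM at 0 h, 18551, 18994 and 16078 CPM at 3 h, 9991, 7357 and 7117 CPM at 6 h, 11925, 8688 and 9132 CPM at 12 h, and 6625, 5507 and 6089.6 CPM at 24 h. All libraries of 6 and 24 h were below those of 0 h, at log2 fold changes of -0.71 (SE 0.19, edgeR adjusted p = 0.0149) and -1.13 (SE 0.19, adjusted p = 8.3e-04).
MT-CO2 (chrM:7586-8269, plus strand), which takes electrons from cytochrome c, was at 11223, 7972 and 9001 CPM at 0 h, 10381 and 13334 CPM at 1 h, 10279, 10812 and 9644 CPM at 3 h, 6513, 4654 and 4705 CPM at 6 h, 7591, 5526 and 6147 CPM at 12 h and 4855, 4126 and 4475 CPM at 24 h. It was the mRNA with the smallest fold change at 3 h, 0.12 (SE 0.15, adjusted p = 0.62), and its 6, 12 and 24 h libraries all lay below 0 h. Its fold changes were -0.83 at 6 h (SE 0.16, adjusted p = 0.00136), -0.55 at 12 h (SE 0.15, adjusted p = 0.0315) and -1.07 at 24 h (SE 0.16, adjusted p = 1.83e-04). The calls at 6 and 24 h held in all 20 alternatives, and the 12 h call was lost in 4. MT-CO3 (chrM:9207-9990, plus strand), the third core subunit, ran from 4973 to 7836 CPM at 0 h and from 2763 to 3378 CPM at 24 h (log2 fold change -1.01, SE 0.17, adjusted p = 7.42e-04).

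The ATP synthase mRNAs encode membrane subunits of the proton channel. MT-ATP6 (chrM:8527-9207, plus strand) was at 6503, 4251 and 4875 CPM at 0 h, 3993, 2949 and 2886 CPM at 6 h and 2862, 2487 and 2698 CPM at 24 h. It was called lower at both later times, by -0.67 (SE 0.17, edgeR adjusted p = 0.0113) and -0.96 (SE 0.18, adjusted p = 0.00114). MT-ATP8 (chrM:8366-8572, plus strand) was at 1321, 878 and 1019 CPM at 0 h and at 487, 466 and 511 CPM at 24 h, a fold change of -1.14 (SE 0.28, adjusted p = 0.00804), and at 6 h it was not called (-0.65, SE 0.27, adjusted p = 0.093). Replicate 2 at 12 h stood apart for MT-ATP8, at 411 CPM against 969.7 and 639.9 CPM in the other libraries of that time.

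The complex I mRNAs moved by different amounts. MT-ND3 (chrM:10059-10404), MT-ND4L (chrM:10470-10766) and MT-ND4 (chrM:10760-12137), neighbours on the plus strand, were called lower at 6 h by -0.63, -0.69 and -0.60 (SE 0.15, 0.21 and 0.19, edgeR adjusted p = 0.00542, 0.0267 and 0.0313) and at 24 h by -0.67, -1.01 and -0.85 (adjusted p = 0.00302, 0.00319 and 0.00455), where MT-ND3 was at -0.40 with the trends removed and still called. At 6 h the call of MT-ND3 held in all 20 alternatives, and those of MT-CO1, MT-CO3, MT-ATP6, MT-ND4L and MT-ND4 were lost in 5 or 6, among them without replicate 1 at 0 h (MT-CO1 -0.47, MT-ND4 -0.37). MT-ND1 (chrM:3307-4262, plus strand) was not called at 6 h (-0.30, SE 0.20, adjusted p = 0.275) and was at 24 h (-0.65, SE 0.20, adjusted p = 0.0225). MT-ND2 (chrM:4470-5511, plus strand) was at 7193, 4541 and 5389.7 CPM at 0 h, 7449.9, 7863 and 7062 CPM at 3 h, 5104, 3679 and 3669 CPM at 6 h and 3917, 3549 and 3777 CPM at 24 h. Its 6 h libraries overlapped those of 0 h and its 24 h libraries did not (-0.61 at 24 h, SE 0.17, adjusted p = 0.014).
MT-ND5 (chrM:12337-14148, plus strand), a proton-pumping subunit, was at 4188, 2573 and 3021 CPM at 0 h, 5157, 5360.2 and 4669 CPM at 3 h and 2242, 2026 and 2166 CPM at 24 h. Its 3 h libraries all lay above 0 h and its 24 h libraries all below, by 0.63 (SE 0.19, adjusted p = 0.0327) and -0.60 (SE 0.19, adjusted p = 0.023). The 24 h calls of MT-ND1, MT-ND2 and MT-ND5 were lost in 4, 2 and 4 of 20 alternatives. Each was lost without replicate 1 at 0 h (-0.42, -0.41 and -0.39), the 0 h library with the highest share of mitochondrial mRNA. The other 9 calls at 24 h held in all 20 alternatives.

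MT-ND6 (chrM:14149-14673, minus strand), the complex I subunit from the light strand, was the mRNA with the largest rise at 3 h and the smallest fall at 6 and 24 h. It was at 692, 409 and 501 CPM at 0 h, 654 and 883 CPM at 1 h, 926, 965 and 848 CPM at 3 h, 547, 397 and 384 CPM at 6 h, 689, 431 and 484 CPM at 12 h and 461, 324 and 358 CPM at 24 h. The 3 h libraries were above all of 0 h, by 0.77 (SE 0.24, edgeR adjusted p = 0.0413), and those of 6, 12 and 24 h overlapped 0 h. The fold change was -0.27 at 6 h (SE 0.24, adjusted p = 0.417), 0.00 at 12 h and -0.49 at 24 h (SE 0.24, adjusted p = 0.13). The 3 h calls of MT-ND5 and MT-ND6 were lost in 5 and 8 of 20 alternatives. Both ended in the fit of the 0 and 3 h libraries alone. They also ended without replicate 2 or 3 at 0 h or replicate 1 or 2 at 3 h. Without replicate 1 at 0 h 9 of 13 mRNAs were called higher at 3 h.
MT-CYB (chrM:14747-15887, plus strand), the complex III subunit that holds both quinone sites, was at 3691, 2337 and 2653 CPM at 0 h, 4255, 4490.4 and 3694 CPM at 3 h and 1883, 1609.9 and 1736 CPM at 24 h. Its libraries at 24 h lay below all of 0 h (-0.73, SE 0.18, adjusted p = 0.00729), and at 3 h the difference did not pass (0.52, SE 0.18, adjusted p = 0.0623).

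The 2 rRNAs did not move alike. MT-RNR1 (chrM:648-1601, plus strand), the small-subunit rRNA, was at 747, 579 and 586 CPM at 0 h, 751 and 988 CPM at 1 h, 1496, 1581 and 1402 CPM at 3 h, 779, 612 and 557 CPM at 6 h, 927, 651 and 752 CPM at 12 h and 685, 559 and 563 CPM at 24 h. The 3 h libraries were above every other library, the 6 and 24 h libraries overlapped 0 h, and the fold change at 3 h was 1.23 (SE 0.16, edgeR adjusted p = 1.87e-04), the highest of the 15 mRNAs and rRNAs. This call held in all 20 alternatives, at 1.10 to 1.36. At 6 h the fold change was 0.03 (SE 0.16, adjusted p = 0.919) and at 24 h -0.08 (SE 0.16, adjusted p = 0.719).
MT-RNR2 (chrM:1671-3229, plus strand), the large-subunit rRNA, lies next to MT-RNR1 in the same precursor, with the tRNA gene MT-TV between them. It was at 7184, 4902 and 5857 CPM at 0 h, 8895, 9083 and 8424 CPM at 3 h, 5209, 3915 and 3781 CPM at 6 h and 4291, 3729 and 3766 CPM at 24 h. Its libraries were above those of 0 h at 3 h (0.56, SE 0.15, adjusted p = 0.0218) and below them at 24 h (-0.61, SE 0.15, adjusted p = 0.00721). At 6 h its libraries overlapped those of 0 h and it was called lower (-0.48, SE 0.15, adjusted p = 0.0296), a call lost in 7 of 20 alternatives. At 24 h it was also lower than at 12 h (-0.51, SE 0.15, adjusted p = 0.0433), a call lost in 8 of 20 alternatives, among them the trends removed, the summed replicates and leaving out any single 24 h library. The 24 h call held in all 20 alternatives, and the 3 h call was lost without replicate 2 or 3 at 0 h or replicate 1 or 2 at 3 h. From 3 to 6 h both rRNAs fell, MT-RNR1 by 1.20 (adjusted p = 1.08e-04) and MT-RNR2 by 1.03 (adjusted p = 1.67e-04) on the log2 scale.
Poly(A) selection can also catch a transcript by A runs within it. The longest A run was 6 bases in MT-RNR1 (within chrM:966-1025) and 7 in MT-RNR2 (within chrM:2430-2489), shown in capitals.
MT-RNR1: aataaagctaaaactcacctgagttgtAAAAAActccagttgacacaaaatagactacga
MT-RNR2: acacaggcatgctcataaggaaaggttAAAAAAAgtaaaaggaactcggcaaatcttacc

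Ratios within the mitochondrial transcripts do not depend on how the libraries are scaled. MT-RNR1 gave 10.4, 11.8 and 10.0 counts per 100 of MT-RNR2 at 0 h, 10.9 and 11 after 1 h, 16.8, 17.4 and 16.7 after 3 h, 15.0, 15.6 and 14.7 after 6 h, 14.3, 13.7 and 13.5 after 12 h, and 16.0, 15.0 and 14.9 after 24 h. Every library from 3 h on lay above every library of 0 and 1 h. The exact permutation p of each of these times against 0 h was 0.1, the smallest possible, and this ratio was added after its values were seen. The 2 rRNAs together gave 10.9 ± 0.581 (SD, n = 3) counts per 100 mRNA counts at 0 h and 10.9 at 1 h, and 12.9 ± 0.445 (SD, n = 3) at 3 h and 13.9 ± 0.549 (SD, n = 3) at 24 h. Their libraries did not overlap those of 0 h at 3, 6, 12 or 24 h (exact permutation p = 0.1 each, 0.167 adjusted over 25 ratio comparisons).

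**Figure D4:**
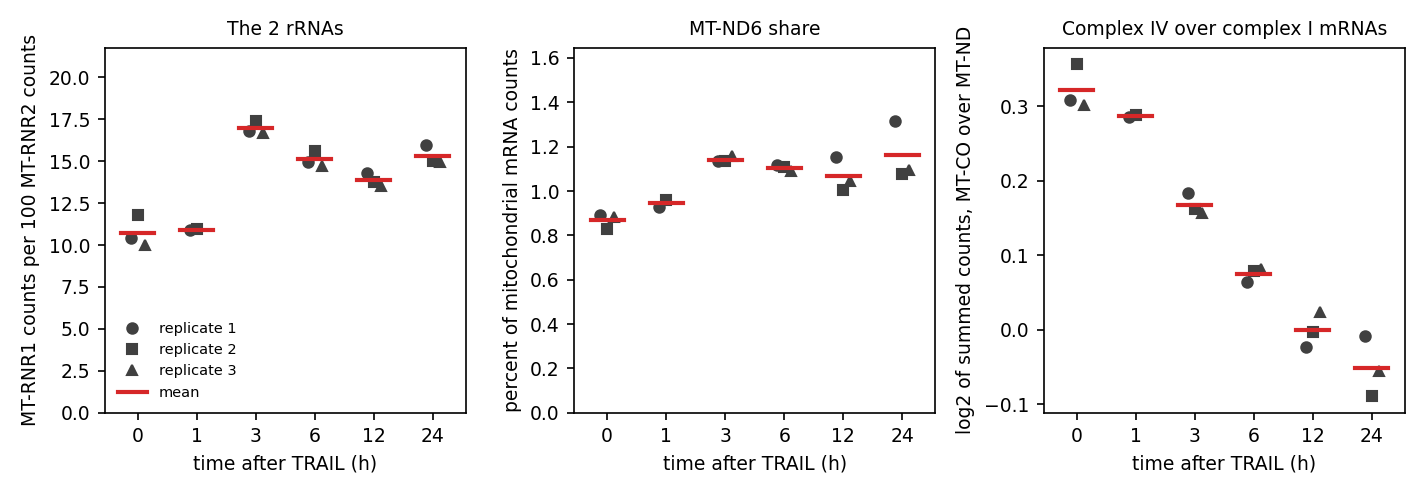
Ratios within the mitochondrial transcripts by hours with TRAIL: counts of MT-RNR1 per 100 counts of MT-RNR2, MT-ND6 as a percent of the mRNA counts, and log2 of the MT-CO over the MT-ND mRNA counts; points are libraries and lines means. The rRNA ratio is 10.0 to 11.8 at 0 and 1 h and 13.5 to 17.4 later.

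Within the mRNAs the 3 MT-CO genes, of complex IV, together took less and the 7 MT-ND genes, of complex I, together more of the counts at later times, though not each MT-ND gene did. The log2 ratio of the 3 MT-CO mRNAs to the 7 MT-ND mRNAs was 0.322 ± 0.0298 (SD, n = 3) at 0 h, 0.287 at 1 h, 0.167 ± 0.0140 (SD, n = 3) at 3 h, 0.0746 ± 0.00928 (SD, n = 3) at 6 h, -0.000761 ± 0.0235 (SD, n = 3) at 12 h and -0.0508 ± 0.0407 (SD, n = 3) at 24 h. Each time lay below the one before it with no overlap up to 12 h, and the 24 h libraries overlapped those of 12 h. Against 0 h the exact permutation p was 0.2 at 1 h and 0.1 from 3 h on (0.167 adjusted over 25). MT-CO2 took 14.5%, 16.2% and 15.8% of the mRNA counts at 0 h, 12.6%, 12.7% and 13.1% after 3 h and 13.9%, 13.7% and 13.7% after 24 h. MT-CO1 took 22.5%, 21.4% and 21.1% at 0 h, 22.7%, 22.3% and 21.9% after 3 h and 18.9%, 18.3% and 18.7% after 24 h. So the share of MT-CO2 was lower by 3 h while that of MT-CO1 still overlapped 0 h. MT-ND2 took 9.28%, 9.22% and 9.48% at 0 h, 9.13%, 9.25% and 9.62% after 3 h and 11.2%, 11.8% and 11.6% after 24 h. MT-ND5 took 5.41%, 5.22% and 5.31% at 0 h and 6.32%, 6.31% and 6.36% at 3 h. The larger share of MT-ND5 came by 3 h and that of MT-ND2 later. MT-ND4L, at 2.32% at 0 h and 2.16% after 24 h, overlapped 0 h at each later time with a lower mean. MT-ND3 had a lower mean than at 0 h (2.27%) after 1, 3, 6 and 12 h, each overlapping 0 h, and a higher one after 24 h (2.64%, no overlap).
MT-ND6 took 0.893%, 0.831% and 0.881% of the mRNA counts at 0 h, 0.929% and 0.960% after 1 h, 1.13%, 1.13% and 1.16% after 3 h, 1.12%, 1.11% and 1.09% after 6 h, 1.15%, 1.00% and 1.05% after 12 h and 1.32%, 1.08% and 1.10% after 24 h. All 14 libraries after 0 h lay above the 3 of 0 h. Against the 12 heavy-strand mRNAs its log2 ratio was higher than at 0 h by 0.12 after 1 h, 0.40 after 3 h, 0.35 after 6 h, 0.30 after 12 h and 0.42 after 24 h (exact permutation p = 0.1 each, 0.167 adjusted over 25). The ATP synthase mRNAs against the MT-CO mRNAs differed from 0 h without overlap at 6 h (0.0638) and 24 h (0.0979).

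Scaling all libraries to the total of the 13 mRNAs, an alternative added after the values were seen, set single members against the group. It removes any change that the 13 mRNAs share, so a fall of the group cannot be called and not all members can keep their sign. Under this scaling 2 members were called against 0 h by edgeR. MT-RNR1 was higher by 0.82 at 3 h (adjusted p = 0.0032), 0.62 at 6 h (adjusted p = 0.0041) and 0.80 at 24 h (adjusted p = 1.1e-04), and MT-ND6 by 0.42 at 24 h (adjusted p = 0.032). None of the 15 mRNAs and rRNAs called at 6 h against 3 h was then called, and 8 of them changed sign, as did 7 of the 14 members called lower at 24 h against 0 h (MT-ND2 was at 0.30, MT-CYB at 0.18 and MT-RNR2 at 0.29). This scaling moves the median of all genes tested to -0.431 after 3 h, 0.575 after 6 h and 0.865 after 24 h, and it called 19.8%, 54.0% and 79.9% of all genes in those comparisons.

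A dependence on transcript length moved with these results. For each library the slope of the nuclear genes' log2 deviation from their mean over libraries was fitted per doubling of transcript length. It ran from -0.0628 to -0.0103 at 0 h, -0.101 to -0.0301 at 1 h, -0.135 to -0.0605 at 3 h, 0.0110 to 0.0948 at 6 h, -0.0271 to 0.0742 at 12 h and 0.0203 to 0.134 at 24 h. Libraries with a low slope had a high share of mitochondrial mRNA, and at 6 of 6 times the library of lowest slope had the highest share. With trends on length and GC content removed, the medians of the mRNAs were 0.29 at 3 h, -0.47 at 6 h and -0.70 at 24 h against 0 h, and -0.67 at 6 h against 3 h. The counts of mRNAs called were then 2 higher at 3 h, 7 lower at 6 h, 3 lower at 12 h and 12 lower at 24 h, and 13 lower at 6 h against 3 h. The same fits called 25.2%, 30.2%, 15.7%, 34.2% and 41.3% of all genes, higher and lower together. At 6 h MT-ATP8 was called with the trends removed (edgeR adjusted p = 0.0161) and MT-ND4 was not (adjusted p = 0.0739). MT-RNR1 was then higher by 1.10 at 3 h (edgeR adjusted p = 2.7e-05).

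**Figure D5:**
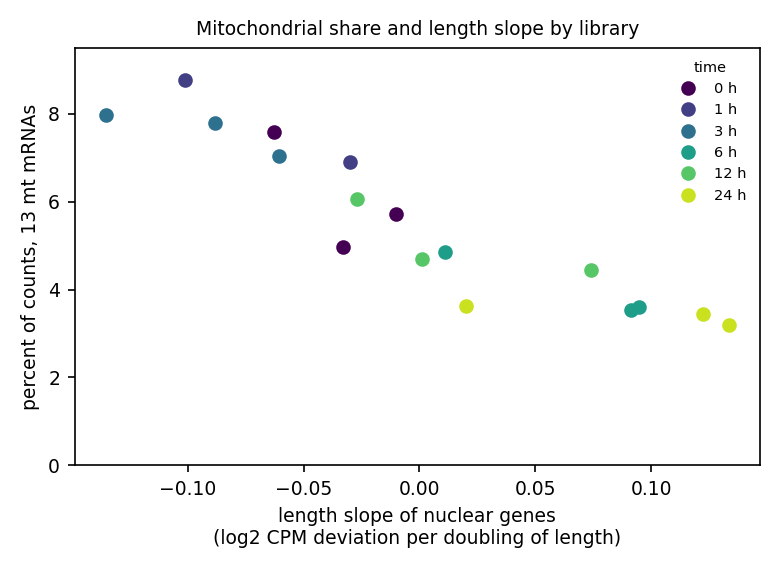
Percent of counts on the 13 mRNAs (vertical axis) against the slope of nuclear genes' log2 deviation per doubling of transcript length (horizontal axis), a point per library, coloured by time. Libraries of 24 h have slopes of 0.0203 to 0.134 and shares of 3.20% to 3.62%.

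The 22 tRNA genes held 567 counts in all 17 libraries together, of 269248531 counts. Of these counts 516, or 91.0%, fell on the 8 tRNAs of the minus strand and 51 on the 14 of the plus strand. The minus-strand genes MT-TA with 245 counts, MT-TS1 with 125 and MT-TN with 88 made up 80.8% and were the tRNAs that passed the filter on low counts. None of the other 19 had more than 4 counts in a library, and 6 had none, which allows up to 0.0111 CPM. Their gene sequences are shown with the anticodon in capitals: MT-TA (chrM:5587-5655, alanine), MT-TN (chrM:5657-5729, asparagine) and MT-TS1 (chrM:7446-7514, serine).
MT-TA: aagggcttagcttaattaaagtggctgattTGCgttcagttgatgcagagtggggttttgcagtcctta
MT-TN: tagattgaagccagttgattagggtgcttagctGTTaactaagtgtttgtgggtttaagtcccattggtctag
MT-TS1: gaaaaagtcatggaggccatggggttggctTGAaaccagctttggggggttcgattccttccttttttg
MT-TA and MT-TN lie between MT-ND2 and MT-CO1, and MT-TS1 directly after the end of MT-CO1, all 3 opposite the heavy-strand precursor. Whether counting used the strand is not given in the sources used here, and without it reads of the heavy-strand precursor and of these tRNAs cannot be told apart. MT-TA had 29, 23 and 16 counts at 0 h, 17 and 28 after 1 h, 17, 20 and 12 after 3 h, 17, 8 and 12 after 6 h, 14, 5 and 4 after 12 h and 9, 13 and 1 after 24 h. All libraries of 12 and 24 h lay below those of 0 h, at log2 fold changes of -1.64 (SE 0.53, edgeR adjusted p = 0.0489) and -1.56 (SE 0.53, adjusted p = 0.0289). The 12 h call was lost in 7 of 19 alternatives and the 24 h call in 3 of 20, among them without replicate 1 or 2 at 0 h. MT-TN and MT-TS1 were called in no comparison of one time with another. In the joint test of any difference between the times, which 64.2% of all genes passed, MT-TN (adjusted p = 0.0277), MT-TS1 (adjusted p = 0.0481) and MT-TA (adjusted p = 0.0245) passed, as did all 13 mRNAs and both rRNAs. The tRNA counts per mRNA count overlapped those of 0 h at all later times.

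The nuclear genes that make and process mitochondrial RNA were described by 6 lists. Of 66 genes (transcription, replication and nucleoid, cleavage, poly(A) and stability, decay, and nuclear regulators), 11 were called higher and 0 lower at 3 h. After 6 h 12 were higher and 2 lower, after 12 h 2 higher and 4 lower, and after 24 h 3 higher and 16 lower. In all 16.7%, 21.2%, 9.09% and 28.8% of the 66 were called at these times, beside the 17.7%, 30.1%, 12.4% and 35.1% of all genes. The medians of the 66 were 0.08, 0.01, 0.01 and -0.06.
Of the 9 transcription genes 0 were called at 3 h, 1 higher at 6 h and 3 lower at 24 h. TFAM, which packages mitochondrial DNA and activates its promoters, was higher at 6 h, at 110 ± 5.61 CPM (SD, n = 3) against 89.0 ± 5.22 CPM (SD, n = 3) at 0 h (log2 fold change 0.30, SE 0.08, edgeR adjusted p = 0.00563), and by 0.18, still called, with the trends removed. At 24 h TFAM was at 90.4 ± 4.31 CPM (SD, n = 3), a fold change of 0.02. POLRMT, the polymerase, was at 39.8 ± 3.45 CPM (SD, n = 3) at 0 h and 33.5 ± 0.686 CPM (SD, n = 3) at 24 h (-0.25, SE 0.08, adjusted p = 0.0201), a call lost in 6 of 20 alternatives, among them the summed replicates and the trends removed (-0.08). At 6 h POLRMT did not pass, at 0.03 (SE 0.08, adjusted p = 0.808). TFB2M and the elongation factor TEFM were not called at any time against 0 h. MRPL12, a ribosomal protein that also binds POLRMT, was lower at 24 h (-0.44, adjusted p = 0.0035), a call lost with the trends removed (-0.09).
In the poly(A) and stability list LRPPRC, which with SLIRP holds mitochondrial mRNAs stable, was higher at 6 h (0.26, SE 0.07, adjusted p = 0.00915). That call was lost with replicates 2 and 3 at 6 h and 24 h summed and without replicate 1 at 0 h, and the value was 0.13 with the trends removed. SLIRP was higher at 3 h (0.43, SE 0.11, adjusted p = 0.0121) and lower at 24 h (-0.39, SE 0.11, adjusted p = 0.0113). The 3 h call was lost without replicate 2 or 3 at 0 h or replicate 2 at 3 h, the 24 h call without replicate 1 at 0 h or replicate 2 at 24 h, and with the trends removed the 24 h value was -0.23. The poly(A) polymerase MTPAP was not called at any time against 0 h. PNPT1, the exoribonuclease of the mitochondrial degradosome, was at 58.0 ± 3.14 CPM (SD, n = 3) at 0 h and 74.7 ± 0.658 CPM (SD, n = 3) at 6 h (0.37, SE 0.07, adjusted p = 7.2e-04), and at 24 h its fold change was -0.06 (adjusted p = 0.555). Its helicase partner SUPV3L1 was higher at 3 h by 0.19 (adjusted p = 0.0279), a call lost in 9 of 20 alternatives. The nuclease ENDOG was lower at 6, 12 and 24 h, by -0.60, -0.56 and -0.56 (adjusted p = 0.00396, 0.0129 and 0.00497), and its calls at 12 and 24 h ended with the length and GC trends removed (-0.29 and -0.17, and -0.32 at 6 h). The 12 h call also ended without replicate 2 at 12 h.
Among the other genes with the largest called changes were the replicative helicase TWNK, higher by 0.33 at 3 h (adjusted p = 0.0095) and 0.41 at 6 h (adjusted p = 0.0011), and the coactivator PPRC1, higher by 0.46 at 3 h (adjusted p = 4.8e-06). GABPA, a transcription factor of respiratory genes, was higher by 0.45 at 6 h and 0.44 at 24 h (adjusted p = 0.0303 and 0.0323), calls that were each lost in 5 alternatives, the summed replicates among them. PUS1, a tRNA-modifying enzyme, was lower by -0.50 at 24 h (adjusted p = 5.9e-04), and KIAA0391, the nuclease subunit of mitochondrial RNase P, was higher by 0.35 at 24 h (adjusted p = 0.0047), a call lost with the trends removed (0.17).

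The nuclear genes for the respiratory complexes and ATP synthase had medians of the same sign as the mitochondrial mRNAs at 3, 6, 12 and 24 h. Of 77 nuclear subunit genes 15 were called higher and 1 lower at 3 h. After 6 h 1 was higher and 31 lower, after 12 h 0 higher and 3 lower, and after 24 h 4 higher and 37 lower, and the medians at the 4 times were 0.16, -0.23, -0.08 and -0.23. In all 20.8%, 41.6%, 3.9% and 53.2% were called, beside 17.7%, 30.1%, 12.4% and 35.1% of all genes. From 3 to 6 h 3 were higher and 57 lower, where 43.2% of all genes were called, with a median of -0.39 beside -0.99 for the mitochondrial mRNAs. In that step the counts lower were 29 of 37 for complex I, 5 of 9 for complex III, 11 of 12 for complex IV and 12 of 15 for ATP synthase. Complex II, which has no mitochondrially encoded subunit, had 2 of 4 higher and 0 lower, too few genes to compare complexes. Of all genes 20.3% were called lower in that step, and the share called higher is not given here. With length and GC trends removed 68.8% of the 77 were called from 3 to 6 h, beside 41.3% of all genes.
Single genes went from NDUFA1, a complex I subunit at 0.50 higher at 3 h (edgeR adjusted p = 0.011, lost without replicate 3 at 0 h or replicate 2 at 3 h), to ATP5F1D, the delta subunit of ATP synthase, lower by -0.75 at 24 h (adjusted p = 0.0024, and -0.47 with the trends removed). NDUFS1, the largest complex I subunit, was higher at 24 h by 0.29 (adjusted p = 0.0041), a call lost with the trends removed (0.05). SDHC, a membrane anchor of complex II, was lower at 3 h by -0.20 (adjusted p = 0.027, lost in 6 of 20 alternatives) and higher at 24 h by 0.26 (adjusted p = 0.0028), a call lost with the trends removed (0.02).
The slope on transcript length moves with these counts too. With length and GC trends removed, 17 were called higher and 7 lower at 3 h, after 6 h 1 higher and 20 lower, and after 24 h 4 higher and 18 lower, with medians of -0.12 at 6 h and -0.08 at 24 h. That was 31.2%, 27.3% and 28.6% of the 77, beside 25.2%, 30.2% and 34.2% of all genes.
Of 78 mitochondrial ribosomal protein genes, whose products bind the 2 rRNAs, 10 were called higher and 1 lower at 3 h. After 6 h 0 were higher and 21 lower, and after 24 h 0 higher and 39 lower, with medians of 0.12, -0.15 and -0.21. In all 14.1% were called after 3 h and 26.9% after 6 h, beside 17.7% and 30.1% of all genes, and 39 of 78 after 24 h, beside 35.1% of all genes. MRPS25 was lower at 24 h by -0.67 (adjusted p = 1.4e-06) and MRPL41 by -0.70 (adjusted p = 0.0085), which was -0.23 with the trends removed. With the trends removed 10 were higher and 11 lower after 6 h, and 1 higher and 32 lower after 24 h, or 26.9% and 42.3% called beside 30.2% and 34.2% of all genes.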

How the data were processed

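RNA of MDA-MB-231 cells was sequenced from stranded, poly(A)-selected, paired-end libraries, per the labels' protocols. Cutadapt 1.18 and STAR 2.7.0f with hg38 are named in the submitters' processing notes. The authors deposited expected counts per gene, of which 10.8% are not whole numbers. The counting tool's strand setting and the annotation release are not given in the sources used here, and the IDs of all 37 members match GENCODE release 29, which gave positions, lengths and sequences. Expected counts were rounded and fitted with edgeR 4.0.16 in R 4.3.3: TMM scaling (factors 0.939 to 1.06), filterByExpr (15365 genes), robust quasi-likelihood fit, 1 mean per time over all 17 libraries. CPM of members and of nuclear genes are TMM-scaled; CPM per kilobase and marker CPM are scaled by the library total alone. Shares and ratios were compared by two-sided exact permutation tests. Alternatives included limma 3.58.1 and DESeq2 1.42.0, other scalings and filters, length and GC offsets, and leaving out each library. The script was tested on simulated data. All 13 mRNAs, both rRNAs and each tRNA that passed the filter are named; of the nuclear lists, 9 genes always and those with the highest and lowest called fold changes per time. The members and lists were chosen with earlier results of these data known. Over all times replicate numbers did not pair the libraries (correlations of same-numbered libraries across times -0.199 to 0.211). The replicate 1 libraries of 0, 6, 12 and 24 h correlated with each other, at 0.0748 to 0.211. Each of them had the highest share of mitochondrial mRNA of its time, as had replicate 2 of 1 h and of 3 h. Replicate 2 of 1 h and of 3 h also correlated with these replicate 1 libraries, at 0.110 to 0.171. Replicate 1 of 1 h was at -0.166 to -0.147 with them and replicate 1 of 3 h at -0.0261 to 0.0106. The reason was not tested.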

Additional observations from a re-analysis of the deposited data

How the results depend on the processing

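The mRNAs called at 24 h against 0 h (9 to 12 when 1 library was left out) and at 6 h against 3 h (13 each time) stayed within 1.5 times the reported count in the 20 alternatives of each, and no called member changed direction in them. Scaling to the mRNAs' own total, chosen after seeing the data, measures members against each other and by construction removes any change that the mRNAs share. It called 0 members at 6 h against 3 h and, at 24 h against 0 h, MT-ND6 and MT-RNR1, both higher. Of the members called as reported, 8 and 7 changed sign in these comparisons. Without the filter on low counts the test against 0 h called 13 mRNAs after 1 h and 11 after 3 h. It called 13 after 6 h and 8 after 12 h. In that fit 2 were called at 3 h against 1 h. At 12 h against 6 h 12 were called, and 13 at 24 h against 12 h. The share of all genes that the unfiltered fit called is not given here, and the cause was not tested. For 3 h against 0 h the count was 4 with DESeq2, 4 with non-robust estimation, 1 with upper-quartile scaling, 0 with only the 2 groups fitted and 1 with replicates 2 and 3 at 6 h and 24 h summed. For 6 h against 0 h it was 2 with only the 2 groups fitted and 2 with those replicates summed. For 12 h against 0 h it was 2 with non-robust estimation, 3 with length and GC trends removed and 0 with only the 2 groups fitted. For 24 h against 12 h it was 3 with limma-voom, 4 with the trends removed and 0 with those replicates summed. Fitting only 2 groups or summing replicates leaves fewer libraries; the cause of the others was not tested.

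With the replicate number as a block, 4 mRNAs were called at 3 h and 2 at 12 h against 0 h, and no other count moved by more than 1.5 times. Over all times the numbers did not pair the libraries. The replicate 1 libraries of 0, 6, 12 and 24 h correlated positively with each other. They also did so with replicate 2 of 1 h and of 3 h.

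Leaving out 1 library gave 0 to 9 calls at 3 h, 2 to 9 at 6 h and 0 to 3 at 12 h against 0 h, 0 to 3 at 12 h against 6 h and 0 to 8 at 24 h against 12 h. The difference in mRNA share at 3 h against 1 h ran from -1.15 to 0.703 percentage points, and that at 12 h against 0 h from -1.59 to -0.277. Log2 ratios of rRNA to mRNA at 1 h ran from -0.0460 to 0.0271, of tRNA to mRNA from -0.0773 to 0.369 at 1 h, -0.421 to 0.0467 at 3 h and -0.203 to 0.243 at 6 h, and of MT-ATP to MT-CO from -0.0168 to 0.00647 at 1 h, -0.00296 to 0.0197 at 3 h and -0.0380 to 0.0520 at 12 h, all against 0 h. MT-RNR1 ran from -0.126 to 0.155 at 6 h, where upper-quartile scaling gave -0.0425, and from -0.185 to 0.0452 at 24 h, where removal of the trends gave 0.0844. Removal of the trends gave -0.0394 for MT-CO2 and -0.00398 for MT-ND3 at 3 h. Of 270 values of nuclear genes with a library left out 72 lost the call, and 33 of 630 in other alternatives. The tRNAs had 4 to 71 counts per library in all, so their values rest on few counts.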
